A study of Mus musculus with 6 samples.

Results

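To examine whether loss of Kansl1 altered the integrated stress response, the RNA levels of 37 genes were compared between wild-type (WT) and Kansl1 knockout (KO) mouse embryonic fibroblasts (MEFs), connective tissue cells grown directly from embryos. The 37 genes were listed by symbol as the kinases that phosphorylate eIF2alpha, the transcription factor gene Atf4 and genes that ATF4 is known to drive. All 37 were found among the 26898 genes of the deposited table. WT cells were Kansl1 fl/fl, with both Kansl1 alleles flanked by recombination sites, and KO cells were Kansl1 fl/fl with CAG-cre, a Cre recombinase under the ubiquitous CAG promoter that tamoxifen activates. All cells were primary C57BL/6 MEFs at passage 3 from mid-gestation embryos, and all 6 samples, 3 of each genotype (WT 4, 5 and 8 and KO 3, 7 and 10), received 1 μM tamoxifen for 48 h. The methods of the study count 3 mice per genotype. Cells with CAG-cre and unrecombined wild-type Kansl1 were not analysed here, so an effect of Kansl1 loss and an effect of active Cre cannot be told apart.

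In the integrated stress response, kinases that sense heme shortage and mitochondrial stress, double-stranded RNA, unfolded protein in the endoplasmic reticulum (ER) or uncharged tRNA phosphorylate the alpha subunit of the translation factor eIF2. General translation then slows, while ATF4, whose messenger RNA carries upstream open reading frames, is translated more. ATF4 binds DNA as a dimer with C/EBP or related proteins and drives genes for amino acid synthesis and uptake, tRNA charging, redox control and feedback on the kinases. In cultured fibroblasts the pathway also follows amino acid supply. RNA sequencing reads transcript levels alone, and phosphorylation of eIF2alpha and the ATF4 protein were not analysed here.

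Levels are given in TPM (transcripts, scaled to a fixed total per sample), which divide reads by gene length, and differences as log2 fold changes of KO over WT on the log2(TPM + 1) scale, which understates changes of low genes. Whole reads recovered from the TPM amounted to between 17655495 (KO 3) and 27718259 (KO 7) per sample. A single non-coding RNA, Gm23935, took 15.5% to 25.6% of the TPM, with the highest share in KO 3 and the next highest in WT 8. The deleted gene itself, Kansl1, measured 28.5, 26.7 and 24.4 TPM (WT 4, 5 and 8) against 13.7, 15.8 and 14.4 TPM (KO 3, 7 and 10), so that every KO sample lay below every WT sample. Its RNA fell to 55.1% of WT (log2 fold change -0.82, SE 0.11, limma adjusted p = 0.000859), and without KO 10 the adjusted p was 0.00608, above the threshold used here. The value covers the whole gene, so RNA of the deleted part cannot be told from RNA of the remaining exons, and it does not show how complete the knockout was. Of the fibroblast markers, 11 of 12 were expressed at 1 TPM or more, Col1a1 at 3080 to 5809 TPM, and S100a4 stood at 0 to 1.48 TPM. Because these are bulk samples, fewer cells of a type and less RNA per cell cannot be told apart.

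A gene counted as changed at a limma adjusted p under 0.005 with a log2 fold change over 0.5 in either direction. The study set these numbers for DESeq2, and here they were applied to the p of a different test. Of the 37 genes, 36 had a group mean of at least 1 TPM and were tested. Cbs, which makes cystathionine from homocysteine and serine, stood at 0.115 to 0.262 TPM (7 to 19 reads) and was not tested. The kinase genes Eif2ak1 and Eif2ak2 fell in KO MEFs, and no member was called higher. Among all 14799 tested genes, 9.03% were called lower and 1.64% higher, so the 2 of 36 called lower (5.6%) were no larger a share than the background. At a limma adjusted p under 0.05 with the same fold threshold, 4 members passed as higher (Atf3, Ddit3, Cebpb and Ddit4), against 4.69% of all tested genes, and at an unadjusted p under 0.05, 9 of the 36 members were on the positive side and 2 on the negative side, against 12.2% and 27.2% of all tested genes. The voom method on recovered reads called 4 members higher at the main thresholds (Ddit3, Ppp1r15a, Ddit4 and Slc3a2), against 4.34% of all tested genes.

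The log2 fold changes of the members lay mostly above 0 without passing the test. They were positive for 29 of 36 members (80.6%), against 42.6% of all tested genes, and their median was 0.26, against -0.07 over all tested genes. The median of the members was 0.10 (25 positive) without WT 4, 0.16 (25 positive) without KO 7 and 0.40 (33 positive) without KO 3. Over all tested genes the median in these fits was -0.047, -0.125 and -0.006, so it moved as well. Leaving out 1 sample moved the log2 fold change by over 1.5 times, or turned its sign, in 26 of the 36 (22 of them without WT 4 and 19 without KO 3). With median-of-ratios scaling the median was 0.36 over the members (32 positive) and 0.02 over all tested genes. All 3 KO samples lay above all 3 WT samples in 7 members (13.3% of all tested genes) and below them in 2 (29.9% of all tested genes), and the groups overlapped in the other 27 tested members. In 29 of the 36 the highest WT sample exceeded the lowest by a larger factor than separated the means of KO and WT, as it did in 55.5% of all tested genes.

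**Figure D1:**
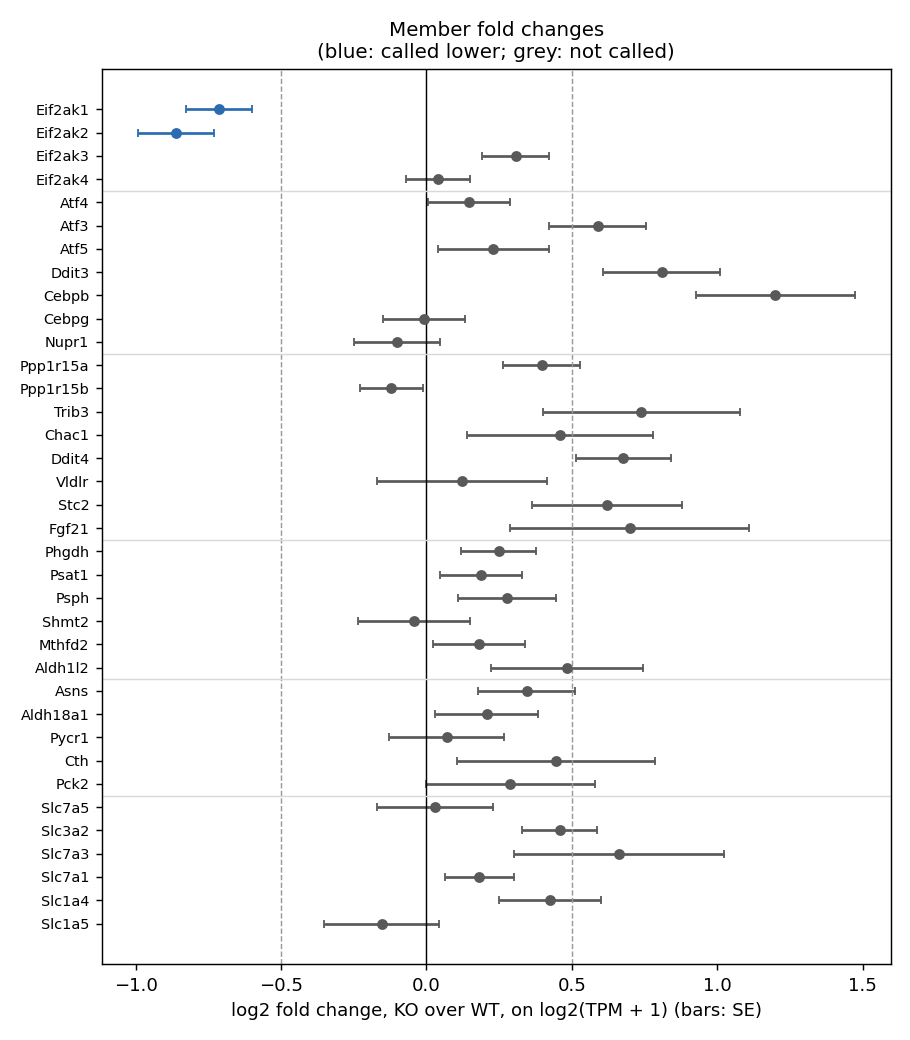
Log2 fold changes of KO over WT on the log2(TPM + 1) scale for the 36 tested members, ordered by role, with standard errors as bars and dashed lines at the threshold of 0.5. Eif2ak1 and Eif2ak2 are called lower, 29 members lie to the right of 0, and several of the widest bars (Trib3, Cth, Slc7a3, Fgf21) belong to genes with low values in WT 4.

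The kinases differed among themselves. Eif2ak1 (ENSMUSG00000029613.15, mm10 chromosome 5 from 143817788 to 143904251, plus strand) encodes HRI, the kinase of heme shortage that also relays mitochondrial stress. It measured 20.8, 20.4 and 17.8 TPM (WT 4, 5 and 8) against 10.65, 11.96 and 12.17 TPM (KO 3, 7 and 10). Every KO sample lay well below the lowest WT sample, WT 8, and within each group the samples stood close together. The mean fell from 19.7 TPM in WT (± 1.62 SD, n = 3) to 11.6 TPM in KO (± 0.826 SD, n = 3), a log2 fold change of -0.71 (SE 0.11, limma adjusted p = 0.00187).

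Eif2ak2 (ENSMUSG00000024079.4, chromosome 17 from 78852564 to 78882573, minus strand) encodes PKR, the sensor of double-stranded RNA. It measured 17.1, 16.8 and 13.9 TPM (WT 4, 5 and 8) against 7.18, 8.76 and 9.03 TPM (KO 3, 7 and 10). The groups did not overlap, with KO 3 the lowest and WT 4 the highest. The mean fell from 15.9 TPM in WT (± 1.76 SD, n = 3) to 8.32 TPM in KO (± 0.998 SD, n = 3), or 52.3% of WT (log2 fold change -0.86, SE 0.13, limma adjusted p = 0.00157). Both calls held without WT 8 but were lost when any other sample was left out, with limma adjusted p between 0.00679 and 0.0106 for Eif2ak1 and between 0.00586 and 0.00768 for Eif2ak2, while the log2 fold changes stayed between -0.75 and -0.66 and between -0.92 and -0.77 in those fits. Both were also lost when all genes were tested without a filter (limma adjusted p = 0.00807 and 0.009315). Exons of Eif2ak1 overlap the opposite-strand genes Ankrd61 and Aimp2 over 659 of 5670 bp, those of Eif2ak2 overlap n-R5s29 and Gm26637 over 221 of 5113 bp, and the sources do not state whether counting used strand.

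Eif2ak3 (ENSMUSG00000031668.14, chromosome 6 from 70844515 to 70905245, plus strand) encodes PERK, the kinase of the ER membrane that responds to unfolded protein. It measured 11.1, 12.87 and 11.46 TPM (WT 4, 5 and 8) against 13.5, 15.5 and 15.5 TPM (KO 3, 7 and 10). The KO samples all lay above the WT samples, by a narrow margin between WT 5 and KO 3, and the log2 fold change of 0.31 (SE 0.11) had a limma adjusted p of 0.0750. Its exons overlap Gm43292 on the other strand over 485 bp. Eif2ak4 (ENSMUSG00000005102.13, chromosome 2 from 118388618 to 118475234, plus strand) encodes GCN2, the sensor of uncharged tRNA. It stood at 17.7, 17.5 and 16.1 TPM in the WT samples and 16.1, 19.2 and 17.5 TPM in the KO samples, with the groups interleaved and a log2 fold change of 0.04 (SE 0.11, limma adjusted p = 0.825).

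Of the transcription factors, Atf4 (ENSMUSG00000042406.8, chromosome 15 from 80255184 to 80257541, plus strand) had the highest level. It measured 263, 325 and 265 TPM (WT 4, 5 and 8) against 258, 358 and 333 TPM (KO 3, 7 and 10). The lowest of all 6 samples was a KO sample and the groups overlapped. The means were 285 ± 34.99 TPM (SD, n = 3) in WT and 316 ± 51.9 TPM (SD, n = 3) in KO, and the log2 fold change of 0.15 (SE 0.14) had a limma adjusted p of 0.472. With 1 sample left out it lay between 0.05 (without KO 7) and 0.285 (without KO 3), and it was 0.25 with median-of-ratios scaling (limma adjusted p = 0.0809) and with voom (adjusted p = 0.0470).

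Of the other 6 factors, Ddit3, Cebpb and Atf3 had separate groups. Ddit3 (ENSMUSG00000025408.15, chromosome 10 from 127290774 to 127296288, plus strand) encodes CHOP, a C/EBP family factor of prolonged stress and cell death. It measured 17.4, 31.8 and 24.4 TPM (WT 4, 5 and 8) against 36.3, 50.9 and 41.7 TPM (KO 3, 7 and 10). All KO samples lay above the highest WT sample, WT 5, and WT 4 was the lowest of all. Its log2 fold change of 0.81 (SE 0.20) had a limma adjusted p of 0.0155 and missed the threshold. Its exons share 105 bp with a further Ddit3 model on the same strand and 81 bp with Gm4189 and Mars on the other strand.

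Cebpb (ENSMUSG00000056501.3, chromosome 2 from 167688915 to 167690418, plus strand) encodes C/EBPbeta, a partner of ATF4 that is also an inflammatory and myeloid factor. It measured 6.24, 10.9 and 12.2 TPM (WT 4, 5 and 8) against 23.4, 32.5 and 15.9 TPM (KO 3, 7 and 10). The KO samples were all higher than the WT samples and spread over a factor of 2.05 among themselves, with KO 7 the highest. The mean was 9.79 ± 3.14 TPM (SD, n = 3) in WT and 23.9 ± 8.31 TPM (SD, n = 3) in KO, and the log2 fold change of 1.20 (SE 0.27) was the largest of the 36 on this scale, with a limma adjusted p of 0.0104. Its single exon of 1504 bp overlaps Tmem189 on the other strand over 312 bp. Macrophage markers also differed between the groups. Of 11 listed, 8 were tested, 7 lay higher in every KO sample than in every WT sample, and the summed level of all 11 was 43.9 to 51.4 TPM in WT and 90.5, 100.4 and 176.9 TPM in KO 3, 7 and 10. Lyz2 was the one called higher (log2 fold change 1.59), and 7 were higher at a limma adjusted p under 0.05 with the same fold threshold. The leukocyte gene Ptprc stood at 0.0872 to 0.257 TPM, and no listed macrophage marker was at 0 in all samples. Of the other tested markers, 2 of 3 epithelial and 1 of 2 endothelial ones lay higher in every KO sample (13.3% of all tested genes). This held for 0 of the fibroblast, neuronal and muscle ones. Among the KO samples, Cebpb was highest in KO 7 and lowest in KO 10, where the macrophage sum was highest. The part of macrophage or other cell type RNA in the levels of Cebpb and the other genes was not tested.

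Atf3 (ENSMUSG00000026628.13, chromosome 1 from 191170296 to 191218039, minus strand), an early stress factor, stood at 5.90, 9.95 and 7.25 TPM in WT 4, 5 and 8. It stood at 11.49, 11.36 and 12.7 TPM in KO 3, 7 and 10. The KO samples were close to each other and above the more scattered WT samples (log2 fold change 0.59, SE 0.17, limma adjusted p = 0.0271). The remaining factors overlapped between groups. Atf5, which is translated like ATF4 under stress, had means of 154 and 177 TPM (log2 fold change 0.23, which was 0.01 without WT 4 and 0.42 without WT 5). Cebpg, the usual C/EBP partner of ATF4, had means of 20.93 and 20.88 TPM (log2 fold change -0.01, and 0.09 with median-of-ratios scaling). Nupr1, a small stress-induced chromatin protein, had means of 46.8 and 43.9 TPM (log2 fold change -0.10, and 0.00 with median-of-ratios scaling).

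**Figure D2:**
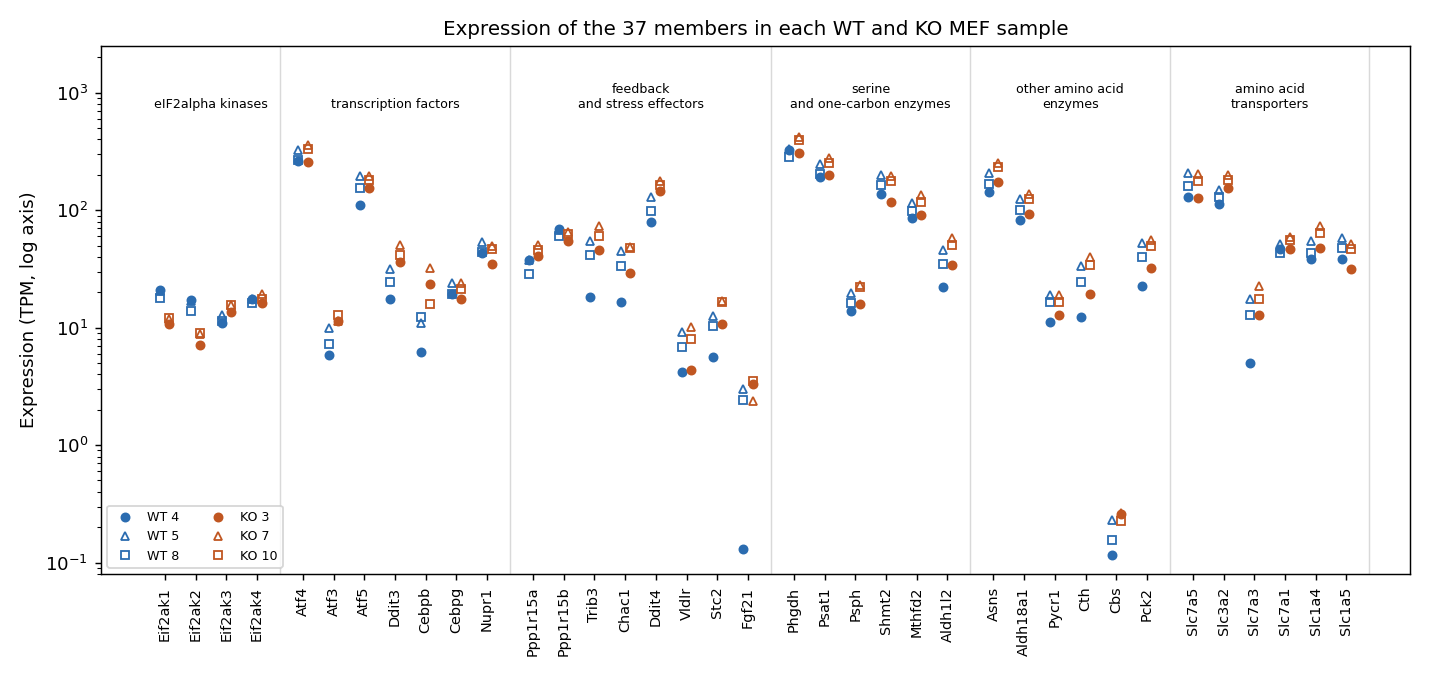
Level of each of the 37 members in each sample, in TPM on a log axis, grouped by role, with WT samples in blue and KO samples in orange and a symbol for each sample. Levels run from 0.115 TPM for Cbs in WT 4 to 418 TPM for Phgdh in KO 7, and WT 4 (filled blue circle) is far below the other WT samples for Trib3, Chac1, Fgf21, Cth and Slc7a3.

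ATF4 with a C/EBP partner binds a composite element, and its letters were searched to show where members carry them. RefSeq windows (GRCm38.p6) were matched by symbol for 31 of the 37 members. In the 250 bases before the start, 8 of these 31 (25.8%) held TGATGNAA on either strand, against 3.91% of 27025 genes with a window and 2.31% of the tested genes with one. The narrower letters TGATGCAA, which are included in the wider ones, were in 6 of 31 members (19.4%), against 0.918% of all genes with a window. The wider letters were in none of the 4 kinases, 5 serine and one-carbon enzymes and 3 amino acid transporters with a window. Asns, Atf3, Chac1, Fgf21, Nupr1, Pck2, Pycr1 and Vldlr held them. The members were listed as ATF4 targets, so these shares are a description. The stretches around the match are given for 5 genes that differ in distance, strand and the sixth letter of the element. Each reads 5′ to 3′ along the strand of the gene, and capitals mark TGATGNAA or its reverse complement TTNCATCA.

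Asns (chr6:7693210-7693262, minus strand): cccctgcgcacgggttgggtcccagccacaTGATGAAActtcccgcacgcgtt

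Atf3 (chr1:191183406-191183473, minus strand): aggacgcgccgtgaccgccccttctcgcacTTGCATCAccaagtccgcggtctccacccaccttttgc

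Chac1 (chr2:119351019-119351086, plus strand): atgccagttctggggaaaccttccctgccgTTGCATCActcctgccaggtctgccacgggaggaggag

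Fgf21 (chr7:45615592-45615659, minus strand): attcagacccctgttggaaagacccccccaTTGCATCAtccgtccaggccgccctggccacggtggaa

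Pck2 (chr14:55540133-55540200, plus strand): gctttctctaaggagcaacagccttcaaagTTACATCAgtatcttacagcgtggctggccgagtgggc

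The match began 23 bases before the RefSeq start in Asns, 110 in Atf3, 193 in Chac1, 139 in Fgf21 and 103 in Pck2. The GENCODE M21 gene models reach further upstream in Asns (to 7693254) and Atf3 (to 191218039), so both matches lie inside those models. Asns reads TGATGAAA along its own strand, and the other 4 carry the letters on the opposite strand, as TGATGCAA in Atf3, Chac1 and Fgf21 and as TGATGTAA in Pck2. The log2 fold changes of the 8 genes that hold the letters ranged from -0.10 (Nupr1) to 0.70 (Fgf21), and none was called changed.

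The feedback and stress effector genes had the highest median log2 fold change of the 6 role groups, 0.54 over 8 genes, which was 0.21 without WT 4. Ddit4 (ENSMUSG00000020108.4, chromosome 10 from 59949669 to 59951834, minus strand), an inhibitor of mTORC1 signalling, measured 79.9, 129 and 98.8 TPM (WT 4, 5 and 8) against 145, 179 and 163 TPM (KO 3, 7 and 10). All KO samples exceeded all WT samples, and the order of the samples within each group was that of Ddit3. The means were 103 ± 24.98 TPM (SD, n = 3) and 162 ± 16.7 TPM (SD, n = 3). The log2 fold change of 0.68 (SE 0.16) had a limma adjusted p of 0.0138. Without WT 5 it was called higher (log2 fold change 0.86, limma adjusted p = 0.00383).

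The eIF2alpha phosphatase subunits act as the brake on the response. The stress-induced subunit gene Ppp1r15a (GADD34) measured 37.7, 37.4 and 28.8 TPM (WT 4, 5 and 8) against 40.7, 50.4 and 45.99 TPM (KO 3, 7 and 10). The groups were separate by a small gap, with a log2 fold change of 0.40 (SE 0.13, limma adjusted p = 0.0517). With median-of-ratios scaling the log2 fold change of Ppp1r15a was 0.497 (limma adjusted p = 0.001995), just below the fold threshold of 0.5. With voom it was 0.513 (adjusted p = 0.000593), and the gene was called higher. The constitutive subunit gene Ppp1r15b (CReP) had means of 65.8 ± 4.74 TPM (SD, n = 3) and 60.5 ± 5.61 TPM (SD, n = 3), with overlapping groups and a log2 fold change of -0.12 (-0.02 with median-of-ratios scaling and -0.04 without KO 3).

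Trib3 and Chac1 had wide WT groups. Trib3, a pseudokinase that restrains ATF4 and AKT, measured 18.2, 55.1 and 41.2 TPM (WT 4, 5 and 8) against 45.5, 73.7 and 59.7 TPM (KO 3, 7 and 10). The WT samples alone spanned a factor of 3.03, more than the factor of 1.56 between the KO and WT means, and WT 5 lay above KO 3. The log2 fold change was 0.74 (SE 0.34, limma adjusted p = 0.138) and 0.29 without WT 4. Chac1, which degrades glutathione, spanned 16.7 to 44.7 TPM in WT and 29.1 to 48.9 TPM in KO (log2 fold change 0.46, and 0.07 without WT 4). Stc2, a secreted glycoprotein of calcium and phosphate balance, had a log2 fold change of 0.62 (0.32 without WT 4), and Vldlr, a lipoprotein receptor, of 0.12, and neither passed the test (limma adjusted p = 0.105 and 0.792).

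Fgf21, a secreted metabolic hormone, was near the lower limit of measurement. It was represented by 1, 25 and 22 reads in WT 4, 5 and 8 and by 23, 22 and 30 reads in KO 3, 7 and 10. WT 4 at 0.130 TPM stood apart from the other 5 samples, which lay between 2.39 and 3.53 TPM with the WT and KO samples mixed. Its log2 fold change of 0.70 (SE 0.41, limma adjusted p = 0.239) became 0.13 without WT 4, 1.37 with a pseudocount of 0.1 and 1.48 with voom, and passed the threshold in none of these.

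The enzymes of serine synthesis and mitochondrial one-carbon metabolism did not pass the thresholds in either direction in the main fit. Their median log2 fold change was 0.22 over 6 genes (0.14 without WT 4, 0.12 without KO 7 and 0.36 without KO 3), the groups overlapped in all 6, and limma adjusted p lay between 0.186 and 0.892. Phgdh, the first enzyme of serine synthesis, had the highest level of all members, at 313 ± 26.3 TPM (SD, n = 3) in WT and 374 ± 57.7 TPM (SD, n = 3) in KO, a log2 fold change of 0.25 (SE 0.13). For Phgdh it was 0.162 without KO 7 and 0.38 without KO 3. It was 0.352 with median-of-ratios scaling (limma adjusted p = 0.00483) and 0.356 with voom (adjusted p = 0.00167), below the fold threshold of 0.5 in both. The next enzymes, Psat1 and Psph, had log2 fold changes of 0.19 and 0.28, which with 1 sample left out ranged from 0.086 (without KO 7) to 0.317 (without KO 3) and from 0.166 (without WT 4) to 0.439 (without KO 3). In the mitochondrial folate steps, Mthfd2 had 0.18 (0.05 without KO 7 and 0.34 without KO 3) and Aldh1l2 0.48 (0.20 without WT 4), and Shmt2, which turns serine into glycine, had -0.04 (0.06 with median-of-ratios scaling). Exons of Aldh1l2 overlap those of D10Wsu102e on the other strand over 1056 of 7503 bp, and those of Psph overlap Cct6a over 452 bp.

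The other amino acid enzymes had a median log2 fold change of 0.29 over 5 genes, with overlapping groups throughout, and it was 0.06 (3 positive) without WT 4 and 0.13 (4 positive) without KO 7. Asns, which makes asparagine and is a standard ATF4 reporter, measured 143, 208 and 169 TPM (WT 4, 5 and 8) against 175, 253 and 232 TPM (KO 3, 7 and 10). KO 3 lay below WT 5, and the log2 fold change of 0.34 (SE 0.17) had a limma adjusted p of 0.159. For Asns it was 0.215 without WT 4 and 0.499 without KO 3. Aldh18a1 and Pycr1, which make proline, had log2 fold changes of 0.21 and 0.07, and that of Aldh18a1 was 0.06 without WT 4 and 0.37 without KO 3. Cth, which releases cysteine from cystathionine, stood at 12.3 to 33.4 TPM in WT and 19.5 to 39.9 TPM in KO (log2 fold change 0.45, and 0.06 without WT 4). Pck2, the mitochondrial form of phosphoenolpyruvate carboxykinase, stood at 22.5 to 52.7 TPM in WT and 31.9 to 55.9 TPM in KO, and its log2 fold change of 0.29 was -0.04 without WT 4.

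Among the amino acid transporters, the groups were separate only for Slc3a2 (ENSMUSG00000010095.13, chromosome 19 from 8706882 to 8723369, minus strand), the heavy chain that carries several transporters to the surface. It measured 113, 148 and 129 TPM (WT 4, 5 and 8) against 156, 199.5 and 181 TPM (KO 3, 7 and 10). Every KO sample exceeded WT 5, the highest of the WT samples. The log2 fold change was 0.46 (SE 0.13, limma adjusted p = 0.0271). Its light chain partner for leucine uptake, Slc7a5, measured 131, 207 and 159 TPM (WT 4, 5 and 8) against 127, 205 and 176 TPM (KO 3, 7 and 10), with nearly the same span in both groups (log2 fold change 0.03). Slc7a3 and Slc7a1, carriers of arginine and lysine, had log2 fold changes of 0.66 and 0.18. That of Slc7a3 was 0.19 without WT 4 and 1.00 without WT 5, and that of Slc7a1 was 0.111 without KO 7 and 0.281 without KO 3. The neutral amino acid carriers Slc1a4 and Slc1a5 had log2 fold changes of 0.43 and -0.15 (limma adjusted p = 0.0990 and 0.594).

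The samples of 1 genotype were ordered alike across most members, a pattern noticed after the values had been seen. WT 4 was the lowest and WT 5 the highest WT sample in 27 of 36 members (75.0%), against 19.1% of all tested genes. With median-of-ratios scaling it was 29 of 36 (80.6%), against 20.8%. The median difference of WT 5 from WT 4 was 0.55 on the log2(TPM + 1) scale over the members and -0.02 over all tested genes. WT 8 lay between them in these 27 genes. Members share these libraries and are not independent of each other, so the counts describe the samples and carry no p.

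Among the KO samples, KO 3 was the lowest and KO 7 the highest in 30 of 36 members (83.3%), but this order was also common in the table, at 57.5% of all tested genes. With median-of-ratios scaling it was 22 of 36 members (61.1%), against 19.3% of all tested genes. The median within-group SD on the log2(TPM + 1) scale was 0.28 for the members and 0.15 for all tested genes in WT, and 0.27 and 0.15 in KO. With median-of-ratios scaling these were 0.304 and 0.115 in WT and 0.145 and 0.094 in KO. The kinases did not share the order: it was seen in 1 of 4 among the WT samples and 1 of 4 among the KO samples, and without the kinases it was seen in 26 and 29 of 32 members.

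The same order was counted in other lists. Of 13 genes for tRNA charging that ATF4 drives (12 synthetases and the tRNA exporter Xpot), 8 had WT 4 lowest and WT 5 highest, and 12 did with median-of-ratios scaling. Of 8 other cytosolic synthetases, 0 did, and 1 with median-of-ratios scaling. Among 14 genes of the ATF6 and XBP1 arm of the unfolded protein response, 2 did, and 4 with median-of-ratios scaling. The order of the KO samples, with KO 3 lowest and KO 7 highest, was in 13 of the 13 tRNA charging genes, 7 of the 8 other synthetases and 13 of the 14 genes of the ATF6 and XBP1 arm. With median-of-ratios scaling it was in 12, 4 and 3 of them. Of 11 tested fibroblast markers, 10 had the WT order (7 with median-of-ratios scaling), 8 the KO order (4) and 7 both (4), as in Col1a1 with 3080, 5805 and 4958 TPM (WT 4, 5 and 8) against 4195, 5809 and 5352 TPM (KO 3, 7 and 10). The summed level of all 12 fibroblast markers was 10810 to 15680 TPM in WT and 11550 to 15210 TPM in KO, lowest in WT 4 and KO 3, and the part of these markers in the order of the members was not tested.

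**Figure D3:**
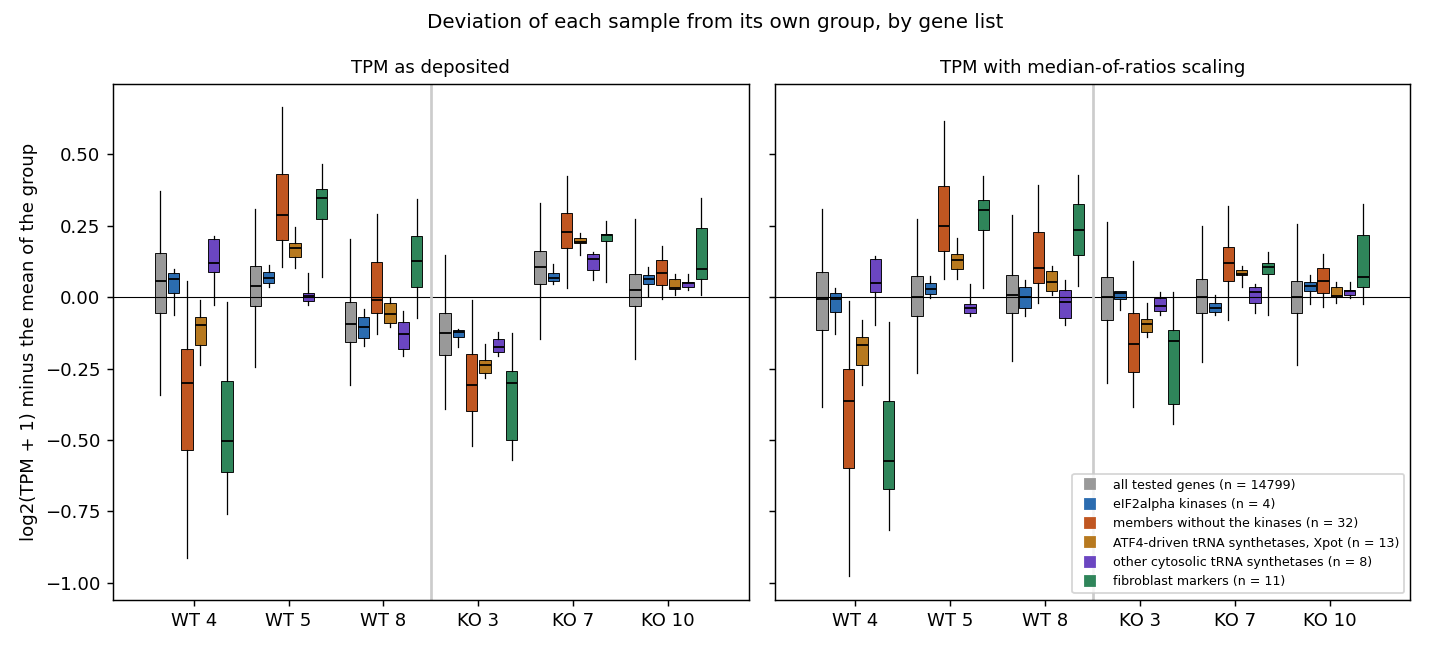
Deviation of each sample from the mean of its own group, on the log2(TPM + 1) scale, for all tested genes and 5 gene lists, with TPM as deposited on the left and after median-of-ratios scaling on the right. Boxes span the quartiles with the median as a line and whiskers run from the 5th to the 95th percentile of genes, and the members without the kinases (orange) lie low in WT 4 and KO 3 and high in WT 5 and KO 7 in both panels.

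To place the members in the wider pathway, 82 further genes of the response and its neighbours were counted by function, of which 80 were tested. In KO MEFs 2 rose and 5 fell at the thresholds, and 5 were higher and 8 lower at a limma adjusted p under 0.05 with the same fold threshold. Over all tested genes the shares were 1.64% higher and 9.03% lower at the thresholds, and 4.69% higher and 16.6% lower at an adjusted p under 0.05, so the genes that fell were a smaller share of this list (6.25%) than of all tested genes. Among 9 genes of eIF2, eIF2B and the related factor Eif2a, 2 were lower and 0 higher (0 positive at an unadjusted p under 0.05 in limma, and 0 higher by voom). The lower genes were Eif2a, an initiation factor distinct from the eIF2 trimer, which fell from 28.2 TPM in WT (± 2.14 SD, n = 3) to 11.9 TPM in KO (± 0.795 SD, n = 3), and Eif2b1, the alpha subunit of the exchange factor eIF2B. Their log2 fold changes were -1.18 and -0.82 (limma adjusted p = 0.000223 and 0.00203). Eif2a stayed called when any single sample was left out and without the filter, whereas Eif2b1 stayed called only without WT 8 among these omissions and was lost without the filter and without the variance trend. Eif2s1, which encodes eIF2alpha itself, had a log2 fold change of 0.01.

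The 6 genes that regulate the kinases had a median log2 fold change of -0.125 (-0.027 with median-of-ratios scaling), with 3 positive and 3 negative. All KO samples lay below all WT samples in 2 of them, Dnajc3 and Oma1. Their log2 fold changes were -0.39 and -0.27 (limma adjusted p = 0.0257 and 0.174). Of the 6, Impact, an inhibitor of GCN2 activation, rose from 62.5 TPM in WT (± 8.80 SD, n = 3) to 103.1 TPM in KO (± 4.66 SD, n = 3). It measured 72.4, 59.2 and 55.8 TPM (WT 4, 5 and 8) against 98.7, 108 and 103 TPM (KO 3, 7 and 10), clearly separate, with WT 4 the highest of the WT samples and KO 3 the lowest and KO 7 the highest of the KO samples. Its log2 fold change was 0.72 (SE 0.11, limma adjusted p = 0.00191), and it was not called without WT 5, WT 8 or any single KO sample, nor without the filter or the variance trend. Of 15 further ATF4 targets, Gdf15, a secreted stress cytokine that p53 also drives, rose from 4.18 TPM in WT (± 0.883 SD, n = 3) to 12.3 TPM in KO (± 1.78 SD, n = 3), a log2 fold change of 1.36 (SE 0.16, limma adjusted p = 0.000487), and stayed called when any single sample was left out, though not without the filter. The list had a median log2 fold change of 0.28 with 12 of 15 positive, 6 positive and 0 negative at an unadjusted p under 0.05. At an adjusted p under 0.05, 4 were higher (Gdf15, Sesn2, Eif4ebp1 and Gadd45a), and voom called Gdf15, Sesn2 and Eif4ebp1. Sesn2, a stress protein that restrains mTORC1, had a log2 fold change of 0.79 (limma adjusted p = 0.00822).

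The ATF4-driven genes for tRNA charging had a median log2 fold change of 0.18 (0.29 with median-of-ratios scaling), with 11 of 13 positive and 0 called, where 4 were positive and 1 (Wars) negative at an unadjusted p under 0.05 and voom called 0. The other cytosolic synthetases had a median of -0.30 (-0.20 with median-of-ratios scaling), with 1 of 8 positive and 0 called by limma or voom, where 5 were negative at an unadjusted p under 0.05. In the ATF6 and XBP1 arm, which senses ER stress in parallel to PERK, 3 of 14 genes fell and 0 rose, with 9 negative and 0 positive at an unadjusted p under 0.05 in limma and 0 higher by voom. Over all tested genes the shares were 9.03% called lower and 27.2% negative at an unadjusted p under 0.05. The 3 were the ER chaperone genes Dnajb11 and Sdf2l1 and the secretory gene Creld2, with log2 fold changes of -1.09, -1.08 and -0.62 (limma adjusted p = 0.00024, 0.000275 and 0.00247). Dnajb11 and Sdf2l1 stayed called when any single sample was left out, and Creld2 only when that sample was KO 7, and Creld2 was also lost without the filter and without the variance trend. The median of that list was -0.38. Among 7 mitochondrial chaperone and protease genes and 8 tested paralogues of the enzymes, none was called in either direction by limma or voom, with medians of -0.03 and -0.07 (0.07 and 0.04 with median-of-ratios scaling). At an unadjusted p under 0.05 these lists had 1 positive gene each, and the paralogues 2 negative ones.

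**Figure D4:**
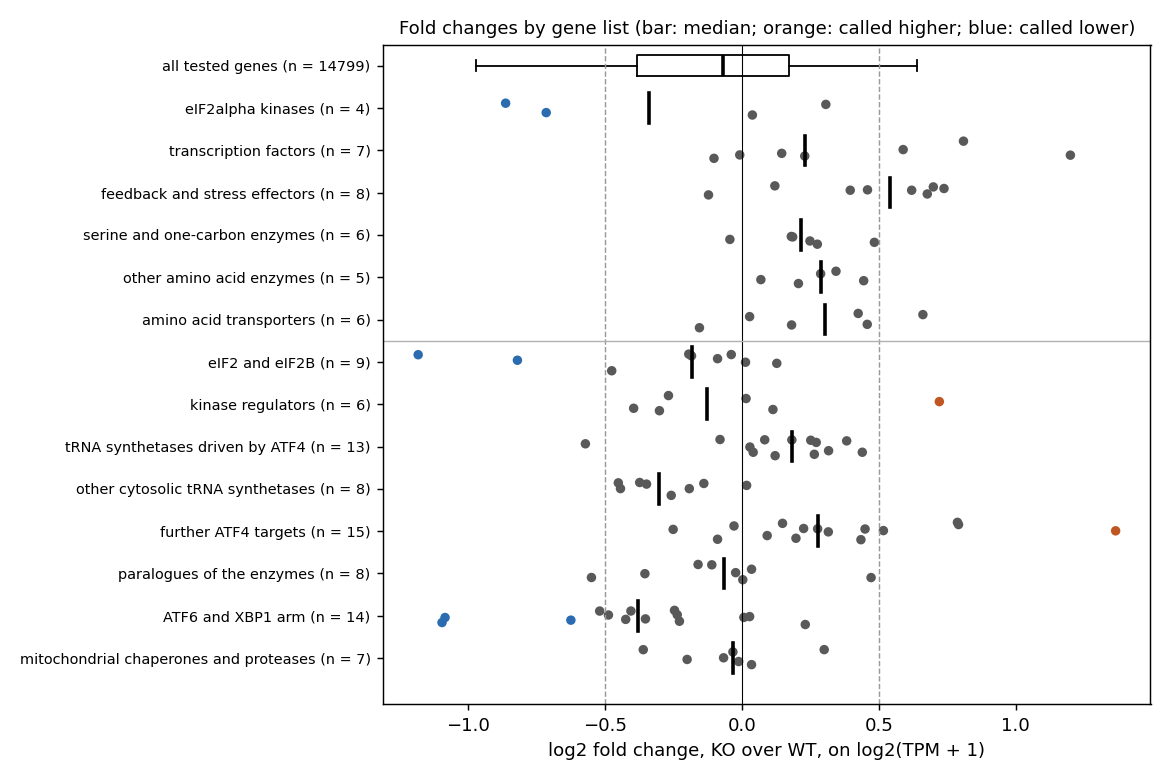
Log2 fold changes of KO over WT on the log2(TPM + 1) scale by gene list, with a point for each tested gene, a bar at the median of each list, and a box for all tested genes that spans the quartiles with whiskers at the 5th and 95th percentiles. Orange and blue mark genes called higher and lower, members stand above the grey line and other pathway genes below it, and the medians of the ATF4-driven lists lie at or above 0.18 while that of the ATF6 and XBP1 arm lies at -0.38.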

How the data were processed

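RNA was sequenced from 3 WT and 3 KO MEF samples, with 2 μg RNA per sample as input. The authors aligned reads to mm10 with STAR per the methods of the study. The submitters' processing notes name Bowtie 0.12.2, and the counting program, annotation and strand setting are not given in the sources used here. The authors deposited expression as TPM for 26898 genes, together with log2 fold changes and adjusted p-values of their own, which were not used.

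Expression was compared with limma 3.58.1 (R 4.3.3) with a 2-group design, a variance trend and no covariate, after adding 1 to TPM and taking log2. Testing was limited to the 14799 genes that reached 1 TPM as the mean of WT or of KO, and p-values were adjusted over all of them by the Benjamini-Hochberg method. The fit was tested on simulated data, and no outcome of that run is used here. Whole reads were recovered from TPM and GENCODE M21 exon lengths, on mm10, for 100.0% of the values checked (tolerance 0.05). They show depth and entered voom as an alternative. P-values weigh a difference against the spread between these samples. Limma draws the variance of each gene toward that of other tested genes of similar level, so p also depends on which genes are tested.

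Members and lists were chosen with earlier results of these data known. All members are named. Values in each sample beyond those of the kinases and Atf4, and other pathway genes that were not called, were chosen after values had been seen. Alternatives changed the filter, pseudocount, scaling, variance trend and thresholds, or left out each sample.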

Additional observations from a re-analysis of the deposited data

How the results depend on the processing

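Fitted with all 6 samples, the log2 fold changes of single members kept their direction and side of the threshold in 232 of 249 values. With 1 sample left out, 189 of 216 did so. Only 2 of the 36 members were called in the main fit, so for most members this meant staying uncalled, whatever the size of the change. Calls were lost in 10 of the values with 1 sample left out, all for Eif2ak1 and Eif2ak2. Members called higher numbered 4 instead of 0 among genes of at least 10 TPM (Ddit3, Cebpb, Trib3 and Ddit4), 4 with voom and 4 at an adjusted p under 0.05, and 0 to 1 with 1 sample left out. Among genes of at least 10 TPM the log2 fold changes of these 4 were those of the main fit, and the limma p alone differed. For Trib3, with its wide WT group, the limma adjusted p was 0.00202 there and 0.138 in the main fit. Members called lower numbered 0 instead of 2 without a filter and 0 at a log2 fold change over 1, and 0 to 2 with 1 sample left out. Other pathway genes called higher numbered 0 instead of 2 without a filter, 4 above 10 TPM, 4 with voom, 1 without the variance trend, 5 at an adjusted p under 0.05 and 1 at a log2 fold change over 1, and 1 to 2 with 1 sample left out. Those called lower numbered 3 instead of 5 without a filter, 3 without the trend, 8 at an adjusted p under 0.05 and 3 at a log2 fold change over 1, and 3 to 4 with 1 sample left out. They numbered 7 above 10 TPM and 6 with the 2 most abundant RNAs removed. Without a filter more genes are tested and with a sample left out fewer samples enter, and for the other settings the cause was not tested.

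Kansl1 kept its direction in every setting run, from -0.87 to -0.77 with 1 sample left out. Signs of small differences turned. Median-of-ratios scaling gave 0.092 for Cebpg, 0.001 for Nupr1 and 0.060 for Shmt2, voom gave 0.104, 0.012 and 0.067, and removal of the 2 most abundant RNAs gave 0.011 for Cebpg. With 1 sample left out, log2 fold changes ranged from -0.023 to 0.097 for Eif2ak4, -0.106 to 0.108 for Cebpg, -0.198 to 0.050 for Nupr1, -0.140 to 0.417 for Vldlr, -0.188 to 0.172 for Shmt2, -0.137 to 0.218 for Pycr1, -0.043 to 0.553 for Pck2, -0.128 to 0.222 for Slc7a5 and -0.297 to 0.058 for Slc1a5.

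Over all tested genes, 242 were called higher and 1337 lower, against 470 and 1445 with median-of-ratios scaling, 642 and 1799 with voom and 55 and 286 without a filter. These scalings moved the median of all tested genes by 0.09 and 0.10. Fgf21, with as few as 1 read in a sample, and Cbs are limited by depth. No paired analysis was possible because no replicate number occurs in both groups.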
